A study of Mus musculus with 58 samples.

Results

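The genes Saa3, Hp, Lcn2, Slpi and Marco encode acute phase and innate defence proteins, and their expression is described here in 34 libraries of mouse microglia. They are 5 of the 47643 Ensembl genes listed in the count tables, and each was found by its symbol as 1 identifier. The 5 genes were chosen by name after results from these libraries were known, and that choice singled out an IkbkbCA library, labelled CW_01_08. Beyond the mention of that library, the record of the choice does not say which measured values it was based on. The values in IkbkbCA vs IkbkbWT and in tau fibrils vs vehicle, where most of these genes are highest, are therefore treated as those the genes were selected on, and are described with fold changes and standard errors (SE) and without p-values.

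Primary microglia of wild-type mice were given full-length tau fibrils (2 µg/ml) or vehicle over 24 h, with 4 libraries in each group. IkbkbCA microglia (Cx3cr1CreERT2/+; IkbkbCA F/F, 5 libraries) carried a Cre-activated transgene for constitutively active IKKβ in the Rosa locus. Their IkbkbWT controls (Cx3cr1+/+; IkbkbCA F/F, 5 libraries) had the same floxed transgene and no Cre. In Ikbkb-/- microglia (Cx3cr1CreERT2/+; Ikbkb F/F, 4 libraries) Cre was used to delete the kinase gene. Ikbkb+/+ microglia (Cx3cr1+/+; Ikbkb F/F, 4 libraries) kept both floxed alleles without Cre. All primary microglia were shaken off mixed glia cultures of hippocampi and cortices of newborn pups, and the 4 Ikbkb groups, controls included, had been given 4-hydroxytamoxifen. Since Cre replaces 1 copy of Cx3cr1, Cre and the loss of this copy go with the genotype in both Ikbkb experiments and cannot be told apart from it. The adult microglia came from perfused brains of male mice aged 10.98 to 11.18 months, by magnetic beads against CD11b, a marker that other myeloid cells share. PS19 mice express human tau with the P301S mutation, NTG mice are their non-transgenic controls, and each group had 4 libraries. Nothing in the labels says that the primary libraries came from separate cultures, so that p-values measure the spread between these libraries, which may be technical.

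Many acute phase proteins, though not all, are made in large amounts during inflammation, mainly by the liver. Interleukin 6 and interleukin 1 then act through STAT3, C/EBP and NF-κB factors. Saa3 is a serum amyloid A that is made by macrophages and other cells outside the liver, and haptoglobin, the product of Hp, binds free haemoglobin. Lipocalin 2, from Lcn2, withholds iron from bacteria by binding their siderophores, and Slpi encodes a secreted inhibitor of neutrophil proteases. Marco is a class A scavenger receptor of macrophages that binds bacteria and particles. IKKβ, encoded by Ikbkb, is the kinase that releases NF-κB from its inhibitor. Neutrophils store lipocalin 2, haptoglobin and Slpi protein, so their markers are given beside these genes.

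Total counts were 1672052 to 8349128 per library. Reads of this 3′ method mark the end of each transcript, whatever its length, and levels are given as CPM, the counts of a gene scaled to the depth of its library, after TMM normalization within each comparison. Genes were kept for testing by the filterByExpr filter of edgeR, and differentially expressed genes (DEGs) had a false discovery rate (FDR) under 0.05 in its quasi-likelihood test. Ikbkb was at 18.7 to 25.4 CPM in Ikbkb-/- and at 45.6 to 54.6 in Ikbkb+/+ libraries, and it was at 44.8 to 59.6 CPM in IkbkbCA and at 41.0 to 58.3 in IkbkbWT, where 3′ reads need not show a transgene. Cx3cr1 was lower in every Cre library, at 1126 to 1299 CPM in IkbkbCA against 1520 to 1963 in IkbkbWT, and at 961 to 1161 in Ikbkb-/- against 1806 to 2891 in Ikbkb+/+. The Y-linked gene Ddx3y was at 155 to 178 CPM in Ikbkb-/- and at 34.7 to 70.2 in Ikbkb+/+. In IkbkbWT it ranged from 1.15 to 172, and in IkbkbCA from 48.7 to 85.4. The labels give no sex for the primary libraries, while the paper describes the mice of its RNA-seq as male. The reason for these differences was not tested. None of the 14 microglia markers was at 0 throughout a group.

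The levels of the 5 genes in the 34 libraries fell into different patterns, which the plot of levels by library shows. To set the 8 groups in order, CPM from 1 normalization of all 34 libraries were used. Median Saa3 was 2913 CPM with tau fibrils, 1635 in IkbkbCA, 83.2 with vehicle, 43.7 in IkbkbWT, 33.0 in Ikbkb-/-, 30.5 in Ikbkb+/+, 25.8 in NTG and 16.1 in PS19. Marco had its highest medians in the same groups, 270 CPM with tau fibrils, 27.5 in IkbkbCA and 2.79 with vehicle, and at most 2.08 in the other 5. In both genes the IkbkbCA libraries overlapped with the tau fibril libraries only through CW_01_08, none of them overlapped with the vehicle libraries, and the groups further down overlapped with their neighbours. Hp was highest in IkbkbCA (29.6 CPM), which did not overlap with NTG (14.04) and PS19 (11.0), ahead of tau fibrils (4.01) and the other groups, at medians of at most 1.64. Lcn2 was highest with tau fibrils (33.7 CPM), PS19 (26.4) and NTG (21.8), then with vehicle (8.52), which did not overlap with NTG, and its medians were at most 1.58 in the 4 Ikbkb groups. Slpi had its highest medians in adult microglia, 6.57 CPM in NTG and 5.73 in PS19, and at most 1.14 in the primary groups, all neighbours in this order overlapping.

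**Figure D1:**
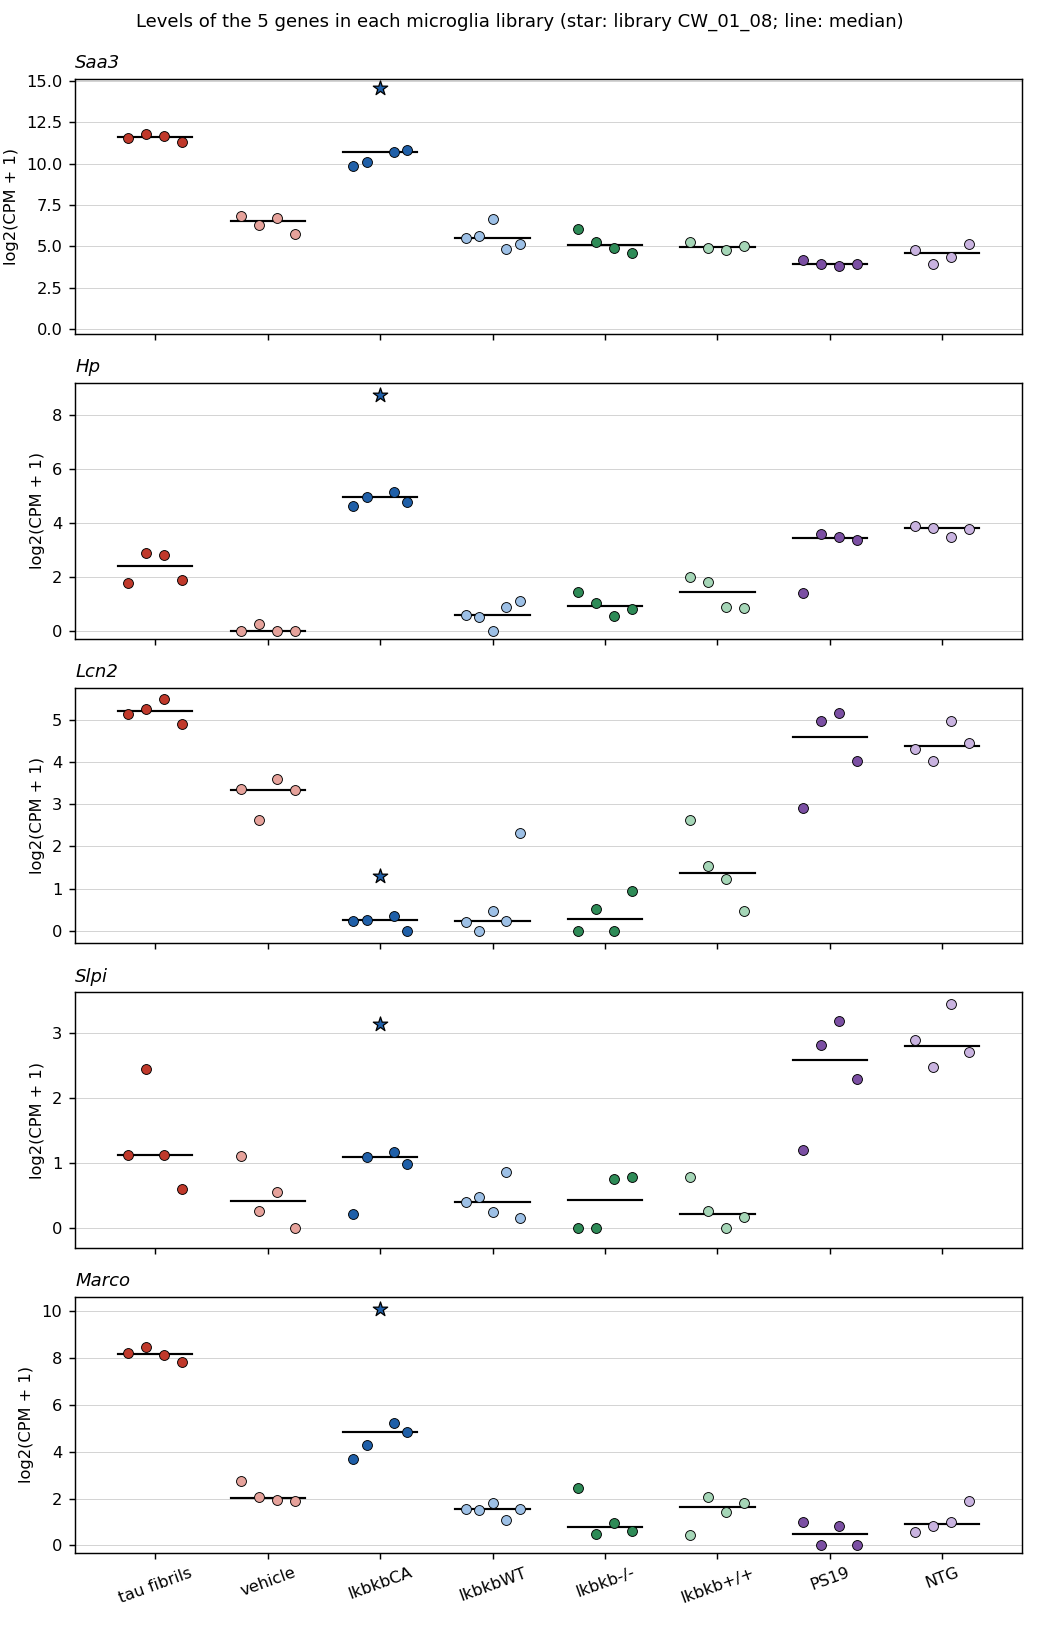
Each panel plots 1 gene, with log2(CPM + 1) on the vertical axis and the 8 groups on the horizontal axis, 1 point per library, a line at the group median and a star for IkbkbCA library CW_01_08. Saa3 and Marco are high in the 4 tau fibril and the 5 IkbkbCA libraries, Hp in the IkbkbCA libraries, Lcn2 with tau fibrils and in adult microglia, and Slpi in adult microglia.

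Saa3 (ENSMUSG00000040026, GRCm38 chr7:46711998-46715700, minus strand) was at 3034, 3499, 3187 and 2548 CPM in the 4 tau fibril libraries and at 112, 76.9, 103 and 51.8 CPM in the 4 vehicle libraries. The groups did not overlap, with a mean of 3067 ± 396 CPM (SD, n = 4) against 85.9 ± 27.2 CPM (SD, n = 4). The log2 fold change was 5.16 ± 0.19 (SE). The related genes Saa1 and Saa2, with which reads could be shared, had at most 2 and 0 counts in a library of this comparison. The 300 bases around the Saa3 start (RefSeq, GRCm38.p6, chr7:46715627-46715926, minus strand) are shown because Saa3 was high both with tau fibrils and in IkbkbCA. In this promoter and the next 2, capitals mark matches on either strand to GGGNNNNNCC, a short form of the NF-κB site, TTNNGNAA, of the C/EBP site, or TTCNNNGAA, of the STAT site.

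Saa3: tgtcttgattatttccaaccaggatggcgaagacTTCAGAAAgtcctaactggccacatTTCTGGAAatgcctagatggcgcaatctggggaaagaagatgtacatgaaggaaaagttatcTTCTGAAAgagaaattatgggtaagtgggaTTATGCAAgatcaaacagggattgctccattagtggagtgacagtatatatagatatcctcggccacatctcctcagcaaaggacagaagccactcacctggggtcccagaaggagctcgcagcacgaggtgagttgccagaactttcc

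The Saa3 window held 4 matches to TTNNGNAA, the nearest of which ended 92 bases before the start, and 0 to the other motifs. Of all 32851 RefSeq promoters of this length, 40.7% held TTNNGNAA, 50.8% held GGGNNNNNCC and 8.30% held TTCNNNGAA. The narrower NF-κB form GGGNNNTTCC, each match of which also matches GGGNNNNNCC, was in 5.56%. A match is a likeness of letters and not a site of binding.

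Marco (ENSMUSG00000026390, chr1:120474538-120505024, minus strand) was at 296, 349, 280 and 223 CPM with tau fibrils and at 5.77, 3.22, 2.81 and 2.70 CPM with vehicle. Every tau fibril library was far above every vehicle library, with means of 287 ± 51.8 and 3.63 ± 1.45 CPM (SD, n = 4 each). The log2 fold change was 6.34 ± 0.22 (SE), and the vehicle libraries held 5 to 16 Marco counts each. The Marco promoter (RefSeq, GRCm38.p6, chr1:120504975-120505274, minus strand) is shown because Marco, like Saa3, was high both with tau fibrils and in IkbkbCA.

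Marco: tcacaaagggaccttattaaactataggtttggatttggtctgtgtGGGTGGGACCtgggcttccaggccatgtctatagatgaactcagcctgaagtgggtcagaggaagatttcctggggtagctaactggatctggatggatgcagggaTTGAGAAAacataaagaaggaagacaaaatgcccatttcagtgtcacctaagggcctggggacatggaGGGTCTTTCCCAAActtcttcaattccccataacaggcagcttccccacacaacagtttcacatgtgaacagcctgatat

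The Marco window held 3 matches to GGGNNNNNCC, of which 1 also matched GGGNNNTTCC, 3 to TTNNGNAA and 0 to TTCNNNGAA. Of these, 2 matches to GGGNNNNNCC and 2 to TTNNGNAA overlapped in 1 stretch that ended 17 bases before the start.

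Lcn2 (ENSMUSG00000026822, chr2:32384633-32388252, minus strand) was at 34.5, 37.5, 44.0 and 29.0 CPM with tau fibrils and at 9.23, 5.23, 11.2 and 9.18 CPM with vehicle. All 4 tau fibril libraries were above all 4 vehicle libraries, with means of 36.3 ± 6.25 and 8.72 ± 2.51 CPM (SD, n = 4 each). The log2 fold change was 2.13 ± 0.25 (SE). The Lcn2 promoter (RefSeq, GRCm38.p6, chr2:32387690-32387989, minus strand) is shown because Lcn2 was high with tau fibrils and near 0 in IkbkbCA.

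Lcn2: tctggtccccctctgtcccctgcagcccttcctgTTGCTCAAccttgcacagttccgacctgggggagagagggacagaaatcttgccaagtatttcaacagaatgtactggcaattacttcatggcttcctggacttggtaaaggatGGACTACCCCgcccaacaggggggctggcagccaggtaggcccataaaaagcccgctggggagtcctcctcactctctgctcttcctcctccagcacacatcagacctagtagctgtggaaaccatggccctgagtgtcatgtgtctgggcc

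The Lcn2 window held 1 match to GGGNNNNNCC, on the opposite strand, 1 to TTNNGNAA and 0 to the other motifs. In the Slpi window (chr2:164356458-164356757, minus strand) there were 3 matches to TTNNGNAA and 0 to the others.

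Hp (ENSMUSG00000031722, chr8:109575128-109579172, minus strand) was low with tau fibrils, at 2.38, 6.25, 5.90 and 2.64 CPM from 4, 14, 15 and 5 counts. With vehicle only replicate 2 held a count, 1 read or 0.201 CPM. The groups did not overlap. The ratio of their summed counts per library size was 48.6, which rests on 1 count with vehicle. Slpi (ENSMUSG00000017002, chr2:164354070-164389095, minus strand) held 2, 10, 3 and 1 counts with tau fibrils and 2, 1, 1 and 0 with vehicle, and the groups overlapped. Both were below the filter and were not tested.

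In this comparison 3 of the 5 genes passed the filter and all 3, Saa3, Marco and Lcn2, were DEGs with higher expression and had groups that did not overlap. Of all 10408 genes tested, 14.5% were DEGs with higher expression and 15.4% with lower expression, and 28.3% had groups that did not overlap. The genes were chosen with these values known, so nothing is read from the count or from the call of any single gene. The summed level of 15 neutrophil markers was 38.1 to 41.3 CPM with tau fibrils and 6.35 to 17.8 with vehicle, and Mmp9, which macrophages also express, made up 24.4 to 25.6 and 0.577 to 1.62 CPM of it. Of the 15 markers, Ly6g, Mpo, Elane, Ctsg and Retnlg were at 0 in all 8 libraries. S100a8 was at 3.17 to 5.36 CPM with tau fibrils and at 0.402 to 5.40 with vehicle. Camp was at 0.447 to 2.64 CPM with tau fibrils and at 0 with vehicle, and Ltf was also at 0 throughout vehicle but not throughout tau fibrils. Ngp, Prtn3 and Cxcr2 went the other way, at 0 throughout tau fibrils but not throughout vehicle. Ngp was at 1.87 CPM in vehicle replicate 3. Without Mmp9 the summed markers overlapped between the groups, at 12.49 to 16.9 CPM with tau fibrils and 5.77 to 16.2 with vehicle. In bulk libraries, fewer cells of a type and less RNA per cell cannot be told apart.

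The other genes of the acute phase pathway were followed in 5 lists of 91 genes in all. With tau fibrils 44 of them were tested, 26 rose and 5 fell, and the median log2 fold change was 0.83, against −0.01 over all genes. Of the acute phase proteins, 8 of 30 were tested, 4 rose and 3 fell. The complement genes C3 (475 to 677 CPM against 8.85 to 16.4) and Cfb (20.6 to 36.9 against 0 to 1.15) rose by 5.64 ± 0.19 and 5.49 ± 0.43 on the log2 scale (SE). Cp, which encodes the copper carrier ceruloplasmin, rose by 1.68 ± 0.25, and Il1rn, the antagonist of interleukin 1, by 0.81 ± 0.19. A2m, Trf and Serpina3n, for 2 protease inhibitors and transferrin, fell by 0.87, 0.63 and 0.51. The liver proteins of the list, such as albumin and C-reactive protein, were among the 22 genes with too few counts. Beside these changes, microglia markers summed to 12234 to 13931 CPM with tau fibrils and 5548 to 7125 with vehicle, astrocyte markers to 493 to 566 and 889 to 986, and neuron markers to 77.3 to 94.2 and 147 to 179. Oligodendrocyte markers overlapped between the groups (202 to 241 and 181 to 258 CPM). The part of these shifts in the rises and falls of single genes was not tested.

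Of the innate defence proteins, 7 of 22 were tested, 5 rose and 0 fell. Acod1, the enzyme that makes itaconate, was at 44.9 to 66.4 CPM against 3.75 to 4.62 and rose by 3.59 ± 0.24 on the log2 scale (SE), Cd14, a coreceptor for bacterial lipopolysaccharide, by 1.78 ± 0.16, the lysozyme gene Lyz2 by 0.88 ± 0.15 and Wfdc17 by 0.96 ± 0.17, and Lyz1 was the fifth. Of the inducing cytokines and regulators, 19 of 24 were tested, 12 rose and 1 fell. Il1b rose by 3.29 ± 0.20, Bcl3 and Nfkbiz, 2 nuclear partners of NF-κB, by 2.82 ± 0.29 and 1.82 ± 0.22, Nfkb2 by 2.30 ± 0.21 and Tnf by 2.10 ± 0.29. Cebpb and Cebpd, the inducible C/EBP factors, rose by 1.56 ± 0.17 and 0.49 ± 0.18 (edgeR FDR 4.2e-08 and 0.040).

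The interleukin 6 arm did not move as one. Il6 itself held 0 to 0.786 CPM with tau fibrils and 0 to 0.604 with vehicle and was not tested. Its receptor gene Il6ra rose by 0.58 ± 0.17 (log2, SE) and the shared receptor chain Il6st fell by 0.68 ± 0.16. Stat3 (log2 fold change −0.19 ± 0.12, edgeR FDR 0.26) and its feedback inhibitor Socs3 (0.02 ± 0.35, FDR 0.98) were no DEGs. Of the receptors and ligand partners, 8 of 11 were tested, 4 rose and 1 fell. The formyl peptide receptors Fpr2, to which serum amyloid A binds, and Fpr1 rose by 4.84 ± 0.33 and 3.95 ± 0.43, Tlr2 by 1.95 ± 0.16, and Slc22a17, which encodes a lipocalin 2 receptor, fell by 0.63 ± 0.15. Cd163, the receptor for haptoglobin bound to haemoglobin, was at 0 to 0.893 CPM with tau fibrils and listed at 0 in all vehicle libraries. Msr1, a class A scavenger receptor like Marco, rose by 1.33 ± 0.14, and 2 of the 4 receptors of this class on the list were tested.

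Active IKKβ without tau is compared in IkbkbCA vs IkbkbWT. Saa3 was at 905, 1096, 24626, 1662 and 1770 CPM in the 5 IkbkbCA libraries and at 43.7, 49.2, 98.9, 27.5 and 34.3 CPM in the 5 IkbkbWT libraries. The groups did not overlap with or without IkbkbCA replicate 3, labelled CW_01_08, which was 13.9 times above the next library. The log2 fold change was 6.89 ± 1.12 (SE) with all libraries and 4.77 ± 0.38 without CW_01_08. Saa3 took 134475 counts, or 2.40%, of CW_01_08. Saa1 reached 13 counts in an IkbkbCA library and Saa2 had 0.

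Hp was at 23.5, 29.6, 422, 34.1 and 25.9 CPM in IkbkbCA and at 0.486, 0.405, 0, 0.824 and 1.15 CPM in IkbkbWT. The 4 IkbkbCA libraries other than CW_01_08 lay close together, at 28.3 ± 4.61 CPM (SD, n = 4), while the 5 IkbkbWT libraries held 0 to 10 counts each. The log2 fold change of Hp was 7.35 ± 1.23 (SE) with all libraries and 5.49 ± 0.38 without CW_01_08.

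Marco was at 11.8, 18.3, 1088, 36.03 and 27.9 CPM in IkbkbCA and at 1.94, 1.82, 2.49, 1.15 and 1.95 CPM in IkbkbWT. It was the gene of the 5 in which CW_01_08 stood furthest from the rest, 30.2 times above the next library. The log2 fold change was 6.97 ± 1.54 (SE) with all libraries and 3.67 ± 0.34 without it, while the groups did not overlap either way.

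Lcn2 and Slpi had too few counts to be tested here. Lcn2 held 1, 1, 8, 2 and 0 counts in IkbkbCA, with the 8 counts in CW_01_08, and 1, 0, 2, 1 and 35 counts in IkbkbWT. The groups overlapped, and IkbkbWT replicate 5 alone, at 4.02 CPM, was above all IkbkbCA libraries. Slpi held 1, 6, 43, 9 and 4 counts in IkbkbCA, or 0.169, 1.15, 7.87, 1.25 and 0.997 CPM, and 2, 2, 1, 5 and 1 counts in IkbkbWT, or 0.115 to 0.824 CPM. With IkbkbCA replicate 1 in the range of IkbkbWT, the groups overlapped with and without CW_01_08.

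All 3 genes tested, Saa3, Hp and Marco, were DEGs with higher expression in IkbkbCA and had groups that did not overlap, with all libraries and without CW_01_08. Of the 11697 genes tested with all libraries, 7.31% were DEGs with higher and 7.16% with lower expression, and 12.7% had groups that did not overlap. Nothing is read from the count or from the call of any single gene, since this comparison is treated as used in the choice of the genes. With limma-voom 1 of the 3 genes, Saa3, was a DEG, and DESeq2 gave none of the 3 an adjusted p, as it does for a gene with an outlying count. The plot of fold changes sets the values with and without CW_01_08 side by side.

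**Figure D2:**
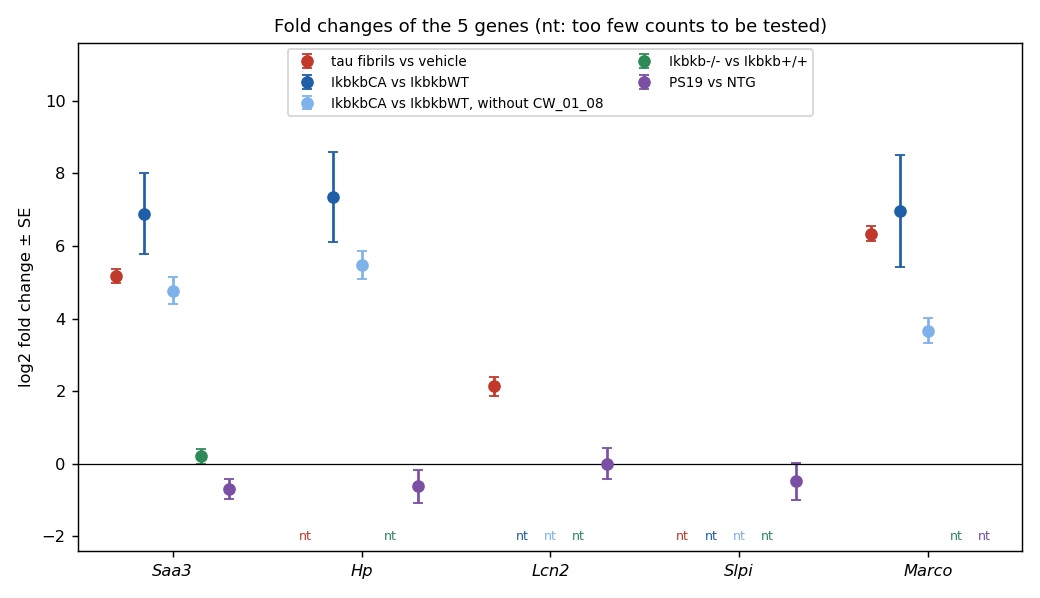
The vertical axis gives the log2 fold change of each gene and the bars its standard error in the 4 comparisons, and IkbkbCA vs IkbkbWT is drawn with all libraries and again without CW_01_08. Genes marked nt had too few counts to be tested. Marco falls from 6.97 to 3.67 without CW_01_08, and the values in Ikbkb-/- vs Ikbkb+/+ and PS19 vs NTG lie between −0.69 and 0.20.

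CW_01_08 stood apart in few genes. At 10 CPM or more, 26 of 11697 genes were at least 4 times above all other IkbkbCA libraries in it, against 0 in each of the other 4. Mmp9, a matrix protease, led them at 1347 CPM against 22.9 in the next library, followed by Marco, Saa3 and Hp in this order. Among the others were Cfb and Fpr1, the chemokine genes Cxcl2 and Cxcl13, and the macrophage lectin Clec4e, and also the myelin and oligodendrocyte genes Mog, Mal and Gjb1, with Apod. Conversely, 7 genes were at least 4 times below the other libraries, among them the interferon-induced Irf7 (73.1 against at least 294 CPM), Ifit3b and Ly6a and the microglia genes P2ry13 and Gpr34. C3, at 184 to 424 CPM in the 5 IkbkbCA libraries, and Acod1, at 144 to 220 CPM, did not belong to either set, though CW_01_08 was the highest library in both. Cx3cr1 was at 1126 to 1299 CPM in the 5 libraries.

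The summed neutrophil markers were 1444 CPM in CW_01_08 and 44.0 to 61.5 in the other IkbkbCA libraries, but 97.2 CPM in it without Mmp9, against 29.8 to 41.5. Of these genes, S100a8 was at 75.6 CPM in CW_01_08 and S100a9 at 4.03. Camp was at 4.40 CPM there and at 0 to 1.15 in the other IkbkbCA libraries. Ngp, by contrast, was lowest in CW_01_08, at 0.549 CPM against 0.677 to 1.53. Retnlg was at 0.183 CPM there and at 0 to 0.748 in the others. Ly6g was at 0.183 CPM there, from 1 count, and Mpo and Elane were at 0 in all 5 libraries. The summed markers of border macrophages, the scavenging macrophages of meninges and vessels, were 976 to 1548 CPM in IkbkbCA and 2659 to 4008 in IkbkbWT. Within IkbkbCA they were highest in CW_01_08, as Marco was, with the other 4 libraries at 976 to 1177 CPM. Oligodendrocyte markers were at 1890 CPM in CW_01_08, 418 to 770 in the other IkbkbCA libraries and 330 to 5283 in IkbkbWT, and astrocyte markers at 307, 87.8 to 182 and 54.1 to 843 CPM. Microglia markers were lowest in CW_01_08 among the IkbkbCA libraries, at 14371 CPM against 18364 to 23375, and were at 12423 to 17717 CPM in IkbkbWT. The part of these cells in the results was not tested.

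**Figure D3:**
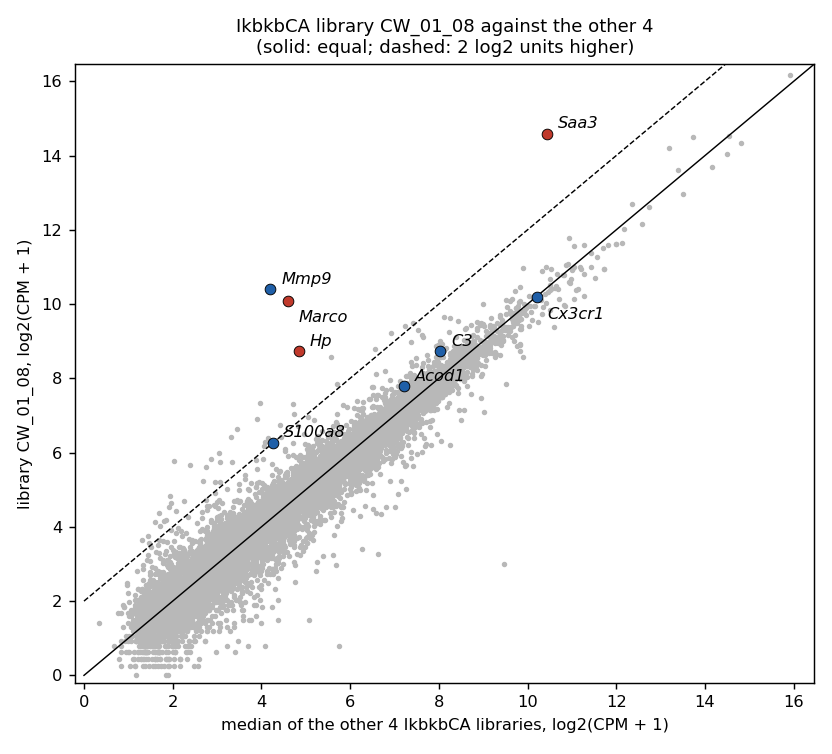
Each point is 1 of the 11697 genes tested in IkbkbCA vs IkbkbWT, with its median in the other 4 IkbkbCA libraries on the horizontal axis and its level in CW_01_08 on the vertical axis, both as log2(CPM + 1). Saa3, Hp and Marco (red) and Mmp9 lie above the dashed line of 2 log2 units, while C3, Acod1 and Cx3cr1 (blue) lie near the line of equal levels.

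Of the 91 other pathway genes, 48 were tested in IkbkbCA vs IkbkbWT, 19 rose and 7 fell, and the median log2 fold change was 0.31, against −0.05 over all genes. Without CW_01_08 the number of DEGs was again 26, while the fold changes of single genes below are with all libraries. Of the acute phase proteins 3 of 9 tested rose, C3, Cfb and Cp, and 1 fell. C3 rose by 4.67 ± 0.46 on the log2 scale (SE) and Cfb by 4.69 ± 0.89. Cfb was at 17.2 CPM in CW_01_08 and at most 2.92 in the other IkbkbCA libraries. Trf fell by 0.66 ± 0.13. Of the innate defence proteins 5 of 8 tested rose and 1 fell. Acod1 rose by 6.21 ± 0.24, S100a8 by 2.52 ± 0.47, Lyz1 by 1.48 ± 0.21 and Lyz2 by 1.24 ± 0.17. S100a8 was at 75.6 CPM in CW_01_08 and at 13.8 to 29.5 in the other IkbkbCA libraries. Wfdc17, a small protein with the same kind of domain as Slpi, fell by 1.87 ± 0.28.

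Of the inducing cytokines and regulators 8 of 21 tested rose and 3 fell. Il1b rose by 2.44 ± 0.43 on the log2 scale (SE), Relb by 1.72 ± 0.10, Nfkbia, the gene of the NF-κB inhibitor, by 1.38 ± 0.13, Nfkb2 by 1.28 ± 0.13 and Nfkbiz by 0.65 ± 0.13. Of the interleukin 6 arm, Il6ra fell by 0.75 ± 0.12, Il6st by 0.59 ± 0.10 and Stat3 by 0.45 ± 0.12, Socs3 was no DEG (0.17 ± 0.18, edgeR FDR 0.63), and Il6 held 0 to 1.99 CPM and was not tested. Cebpb rose by 1.04 ± 0.28, with groups that overlapped, and Cebpd was no DEG (0.09 ± 0.23, edgeR FDR 0.86). Of the receptors and partners 3 of 8 tested rose and 2 fell. Fpr2 and Fpr1 rose by 5.28 ± 0.59 and 4.62 ± 0.82 and Tlr2 by 2.27 ± 0.11. In CW_01_08 Fpr2 and Fpr1 were at 54.6 and 52.6 CPM, against IkbkbCA medians of 13.9 and 9.22. Cd36, a scavenger receptor of another class, fell by 1.76 ± 0.19 and Scarb1 by 0.70 ± 0.18. Slc22a17 (−0.03 ± 0.38, FDR 0.97) and Msr1 (0.86 ± 0.30, FDR 0.082) were no DEGs, and Cd163 had at most 1.61 CPM.

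**Figure D4:**
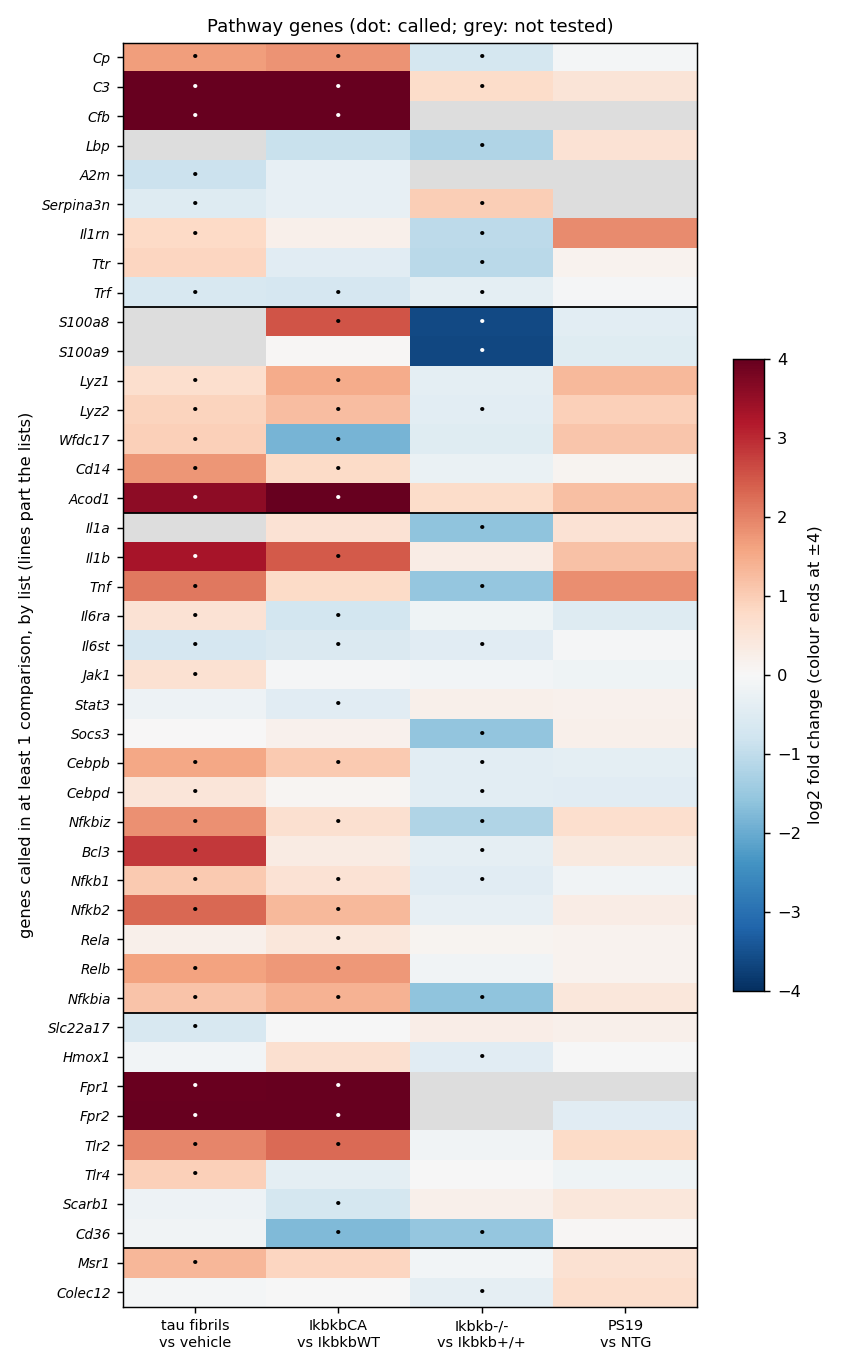
Rows are the 43 pathway genes that were DEGs in at least 1 comparison, grouped by list, columns are the 4 comparisons, and colour gives the log2 fold change, ending at ±4. Dots mark DEGs and grey marks genes not tested. C3, Cfb, Acod1, Il1b, Fpr1 and Fpr2 rose in the first 2 columns, and the last column has no dot.

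Deletion of Ikbkb without added stimulus is compared in Ikbkb-/- vs Ikbkb+/+. Ikbkb RNA remained at 18.7 to 25.4 CPM in the Ikbkb-/- libraries, and how complete the deletion was is not known from these reads. Saa3 was at 64.4, 37.8, 29.2 and 22.9 CPM in Ikbkb-/- and at 38.1, 29.5, 27.0 and 31.9 CPM in Ikbkb+/+. The groups overlapped, and the log2 fold change was 0.20 ± 0.22 (SE, edgeR FDR 0.60). Saa3 alone of the 5 genes was tested, and it was no DEG. At an unadjusted p under 0.05 the number was also 0, as with DESeq2 and limma-voom at FDR under 0.05. Of all 11242 genes tested, 7.71% were DEGs with higher expression and 6.88% with lower, and 18.1% had groups that did not overlap. The direction of Saa3 turned without Ikbkb-/- replicate 1 (−0.07) and with the level of Ddx3y as a covariate (−0.50).

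Lcn2 held 0, 2, 0 and 5 counts in Ikbkb-/-, or 0, 0.420, 0 and 0.916 CPM, and 14, 9, 8 and 3 counts in Ikbkb+/+, or 5.17, 1.88, 1.33 and 0.394 CPM. The 2 groups overlapped (exact permutation test on log2(CPM + 1), two-sided, p = 0.0857, adjusted over 5 such tests 0.429). The summed neutrophil markers were 454, 116, 58.8 and 25.9 CPM in the same 4 Ikbkb+/+ libraries, in the order of their Lcn2 levels, and 20.9 to 27.1 in Ikbkb-/-. Of these markers S100a8 was at 176, 38.5, 15.1 and 3.28 CPM in Ikbkb+/+ and at 2.26 to 5.45 CPM in Ikbkb-/-, and Ly6g was at 0 in all Ikbkb-/- libraries. The part of neutrophils in the Lcn2 levels was not tested.

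Hp was at 1.69, 1.05, 0.468 and 0.733 CPM in Ikbkb-/- and at 2.96, 2.51, 0.828 and 0.788 CPM in Ikbkb+/+, where the order of the libraries was again that of the neutrophil markers. It did not pass the filter, and the groups overlapped (exact permutation p = 0.257, adjusted 0.429). Marco was at 4.52, 0.420, 0.935 and 0.550 CPM against 0.370, 3.14, 1.66 and 2.50 (exact permutation p = 0.629, adjusted 0.786), and Slpi held at most 4 counts in any of the 8 libraries (p = 1 by the same permutation test). With 4 libraries in each group, this test cannot give a p below 0.0286. For Marco the 95% interval (exact binomial) of the ratio of summed counts, 0.263 to 0.874 around 0.491, covers counting error alone, and leaves out the spread between libraries.

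Of the 91 other pathway genes, 43 were tested in Ikbkb-/- vs Ikbkb+/+, 2 rose and 21 fell, and the median log2 fold change was −0.36, against 0.00 over all genes. The number of DEGs was 9 in place of 23 with Ddx3y as a covariate. Of the acute phase proteins 2 of 7 tested rose, Serpina3n by 0.98 ± 0.18 (log2, SE) and C3 by 0.73 ± 0.19, and 5 fell, Cp, Ttr, Trf, Lbp and Il1rn. Lbp, the gene of lipopolysaccharide binding protein, fell by 1.22 ± 0.25 and Il1rn by 1.05 ± 0.17. Of the inducing cytokines and regulators 10 of 20 tested fell and 0 rose. Nfkbia fell by 1.60 ± 0.27, Socs3 by 1.59 ± 0.32, Tnf by 1.56 ± 0.29 and Nfkbiz by 1.21 ± 0.26. Their Ikbkb+/+ libraries spread widely, over 354 to 1482, 14.6 to 63.6, 22.1 to 72.8 and 21.5 to 70.2 CPM. In Ikbkb-/- they were at 256 to 285, 9.89 to 13.8, 10.4 to 17.2 and 14.03 to 23.5 CPM. Summed neutrophil markers spread over 25.9 to 454 CPM in Ikbkb+/+, and their part in these falls was not tested. Il6st fell by 0.44 ± 0.14, Cebpd by 0.42 ± 0.13 and Cebpb by 0.43 ± 0.13. The groups of Nfkbiz, Il6st and Cebpb overlapped. Il1b (0.29 ± 0.21, edgeR FDR 0.40), Stat3 (0.21 ± 0.10, FDR 0.17) and Il6ra (−0.17 ± 0.10, FDR 0.30) were no DEGs. Without Ikbkb+/+ replicate 1, Il1b was a DEG with higher expression (0.58, edgeR FDR 0.010). With Ddx3y as a covariate it turned to −1.38 and was no DEG (edgeR FDR 0.11). Of the innate defence proteins 3 of 8 tested fell, Lyz2, S100a8 and S100a9, of which the last 2 are also neutrophil markers, and 0 rose. Of the receptors 2 of 6 fell, Cd36 by 1.54 ± 0.22 and Hmox1, the haem-degrading enzyme, by 0.47 ± 0.09. Msr1 was no DEG (−0.10 ± 0.11, edgeR FDR 0.65), nor was Slc22a17 (0.28 ± 0.14, FDR 0.21). Il6, with 0 CPM in Ikbkb-/- and 0 to 1.11 in Ikbkb+/+, Cd163 (0 to 0.701 and 0.263 to 6.28 CPM) and Fpr2 (0.565 to 1.68 and 0.166 to 2.59 CPM) were not tested. Oligodendrocyte markers summed to 574 to 661 CPM in Ikbkb-/- and 299 to 419 in Ikbkb+/+, and border macrophage markers to 985 to 1528 CPM in Ikbkb-/- and 3151 to 3278 in Ikbkb+/+.

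Tau in vivo is compared in PS19 vs NTG. None of the 4 genes that passed the filter was a DEG. At an unadjusted p under 0.05 the number was 1, Saa3, and with DESeq2 and limma-voom it was 0 at FDR under 0.05. Of all 11323 genes tested, 0.0707% were DEGs with higher expression and 0.0% with lower, and 5.77% had groups that did not overlap, which none of the 4 genes had. Saa3 was at 17.2, 14.04, 13.05 and 14.2 CPM in PS19 and at 27.0, 14.6, 19.6 and 34.3 CPM in NTG. Of the PS19 libraries 3 of 4 were below every NTG library, and the log2 fold change was −0.69 ± 0.27 (SE, edgeR FDR 0.52).

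Lcn2 was at 6.56, 30.7, 34.7 and 15.4 CPM in PS19 and at 19.0, 15.3, 30.6 and 21.02 CPM in NTG. The PS19 libraries spread over the whole range of the NTG libraries and beyond it on both sides, and the log2 fold change was 0.00 ± 0.43 (SE, edgeR FDR 1.00). Hp was at 1.64, 10.9, 10.2 and 9.22 CPM in PS19 and at 13.5, 13.05, 9.99 and 12.7 CPM in NTG (log2 fold change −0.62 ± 0.45, FDR 0.73). Slpi was at 1.31, 6.09, 8.09 and 3.93 CPM in PS19 and at 6.49, 4.605, 9.99 and 5.53 CPM in NTG (−0.48 ± 0.50, FDR 0.82). In all 3 genes PS19 replicate 1 was the lowest of the 8 libraries.

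In PS19 the neutrophil markers moved with Lcn2 and Slpi, and in NTG they did not. Their summed level was 441, 1642, 2499 and 961 CPM in the 4 PS19 libraries, so that replicate 1 was the lowest in these as well, and 2018, 2165, 1793 and 1598 CPM in NTG. S100a8 was at 149 to 920 CPM in PS19 and at 560 to 879 in NTG, Ly6g at 1.31 to 18.5 and at 7.74 to 13.98, and none of the 15 markers was at 0 throughout either group. Within PS19, Lcn2 and Slpi followed the markers in all 4 libraries, whereas the order of Saa3 was the reverse. Within NTG, replicate 2 had the highest marker sum and the lowest Lcn2 and Slpi. The part of neutrophils in these levels was not tested.

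**Figure D5:**
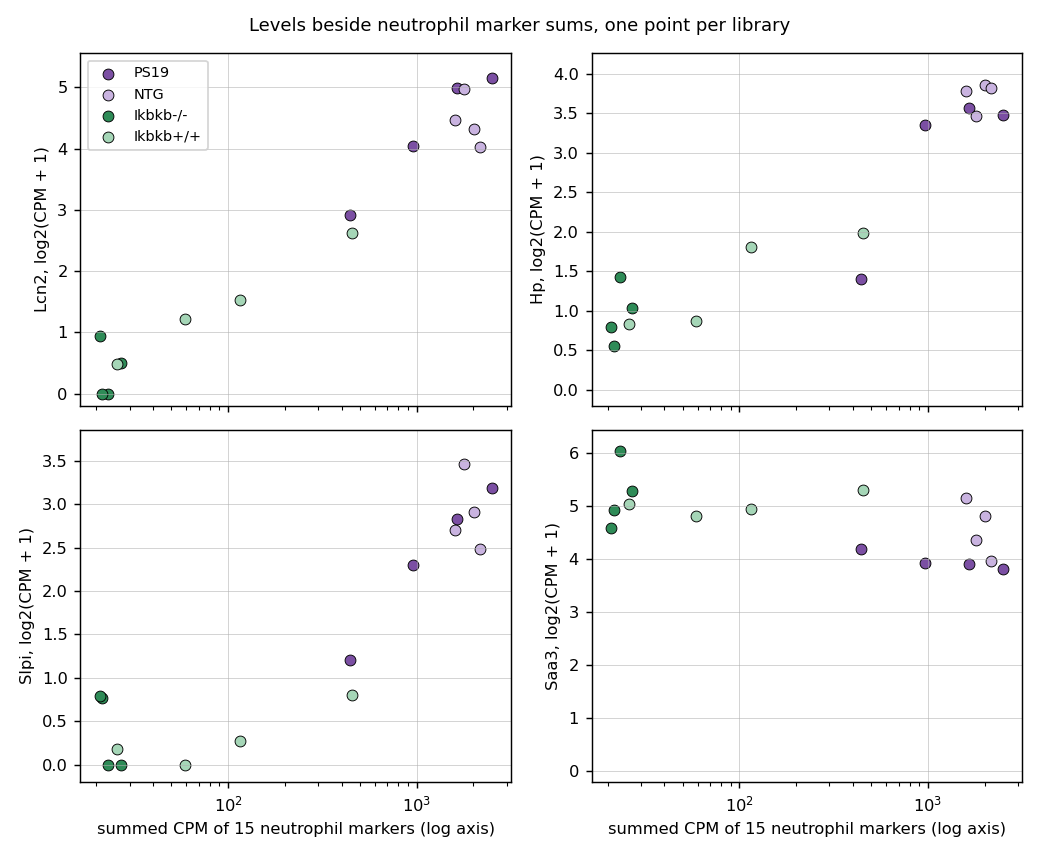
Each point is 1 library of PS19, NTG, Ikbkb-/- or Ikbkb+/+, with the summed CPM of 15 neutrophil markers on a logarithmic horizontal axis and the level of Lcn2, Hp, Slpi or Saa3 as log2(CPM + 1) on the vertical axis. Lcn2 and Slpi are highest in adult libraries, where the marker sums are 441 to 2499 CPM, and Saa3 is not.

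Marco, which did not pass the filter, held 6, 0, 6 and 0 counts in PS19 and 1, 2, 5 and 5 in NTG (exact permutation p = 0.257, adjusted 0.429). Of the 91 other pathway genes 54 were tested and none was a DEG. At an unadjusted p under 0.05 there were 11, and at FDR under 0.05 there were 3 with DESeq2 and 0 with limma-voom. The median log2 fold change was 0.15, against 0.00 over all genes. Il1b was at 180 to 481 CPM in PS19 and 105 to 155 in NTG without overlap (log2 fold change 1.18 ± 0.27, FDR 0.19). Il6, which had too few counts in the primary cultures, was at 1.06 to 3.77 CPM in PS19 and 3.50 to 5.53 in NTG (−0.89 ± 0.49, FDR 0.65). Nfkbiz (0.66 ± 0.28, FDR 0.53), Msr1 (0.61 ± 0.42, FDR 0.71), Fpr2 (−0.46 ± 0.57, FDR 0.86) and Cd163 (−0.05 ± 0.37, FDR 0.98) overlapped between the groups. Also no DEGs were Cebpb (−0.40 ± 0.40), Cebpd (−0.44 ± 0.23), Il6ra (−0.53 ± 0.22), Il6st (−0.04 ± 0.20), Stat3 (0.16 ± 0.24), Socs3 (0.21 ± 0.34) and Slc22a17 (0.19 ± 0.22), with edgeR FDR values of 0.53 to 0.97.

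The genes most like each of the 5 were found by Spearman's rho over the 34 libraries among 13721 other genes. Saa3 and Marco were near neighbours, with a rho of 0.88, and both were close to Clec4d, a lectin receptor of myeloid cells (0.92 with Saa3 and 0.84 with Marco). Ell2 followed for Saa3 (0.87) and Plec for Marco (0.80). Without CW_01_08 the same 3 genes were nearest to Saa3 and to Marco. Hp was nearest to Rrad (0.88), Birc3 (0.87) and Gpr84 (0.85), with Acp2 in the place of Gpr84 without CW_01_08. For Lcn2 these genes were Rpl34-ps2 (0.90), Orc5 (0.88) and Il1r1 (0.87), and for Slpi they included Ppm1f (0.81) and Fbrsl1 (0.81). Among the 5 genes themselves, rho was 0.62 for Hp with Slpi, 0.55 for Lcn2 with Slpi and 0.22 for Hp with Lcn2, and it was between −0.15 and 0.17 for Saa3 or Marco with the other 3. Libraries of the same experiment share their kind of cells and mouse line, so that rho is a description over libraries that are not independent.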

How the data were processed

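Microglia of mice gave 34 of the 58 samples of the series, sequenced as QuantSeq 3′ libraries. The 24 cortex samples were not analysed here. The authors deposited 1 table of raw read counts per library, mapped to GRCm38 with GENCODE annotation on the BlueBee platform. STAR, RSEM, edgeR and limma are the tools that the submitters' processing notes name, and the 5 closing lines of each table, which name no gene, were left out of library sizes. Among these lines, reads outside genes made up 12.4% to 38.3% and reads that matched several genes 0.409% to 0.708% of the sum of reads in genes, outside genes and in several genes. Total counts were 1672052 to 8349128, and pairs of libraries with identical counts within a group numbered 0. Groups were taken from the sample labels, and replicate numbers only name libraries. Symbols and positions came from GENCODE M21 (47224 of 47643 identifiers), and promoters from RefSeq on GRCm38.p6 (4 of the 5 genes matched).

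R 4.3.3, edgeR 4.0.16, limma 3.58.1 and DESeq2 1.42.0 were used. Each comparison was fitted on its own 2 groups with TMM, filterByExpr (minimum count 10, minimum total count 15) and edgeR's quasi-likelihood test, with Benjamini-Hochberg adjustment over all genes tested and an FDR under 0.05. The procedure was tested on simulated data. Each SE is the size of the log2 fold change over the root of F. Members below the filter in PS19 vs NTG and Ikbkb-/- vs Ikbkb+/+ were compared by exact permutation of log2(CPM + 1).

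The members, gene lists, tests and alternatives were chosen with earlier results of these data known. Named genes were the 5 members, Ikbkb and Cx3cr1, in each list the 5 highest and 5 lowest fold changes among DEGs whose groups did not overlap, 13 genes of the interleukin 6, NF-κB and receptor arms (Nfkbiz, Cebpb, Cebpd, Stat3, Socs3, Il6, Il1b, Il6ra, Il6st, Cd163, Fpr2, Slc22a17 and Msr1), and the 3 genes with the highest rho for each member, of which 1 is not reported here. Saa1, Saa2, Mmp9, Ddx3y, the genes named for CW_01_08, single neutrophil, myelin and oligodendrocyte markers, and Cp, Ttr, Lyz1, S100a8 and S100a9 where a count of 5 or fewer was completed, were named after their values were seen.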

Additional observations from a re-analysis of the deposited data

Results flagged for a closer look

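In each of the 40 sets of 1 gene and 1 group, the gap between the highest or the lowest library and its neighbour was compared with the range of the group on the scale of log2(CPM + 1), at Dixon's 95% critical value. The nominal chance rate is about 1 in 20 sets, and 7 of the 40 had a library that stood apart. The 7 cannot be weighed against this rate. The choice of the genes singled out CW_01_08, the library marked for Saa3, Hp, Lcn2 and Marco in IkbkbCA. The rate also need not hold for sets with few counts, such as Hp in vehicle, which was marked on 1 count.

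IkbkbCA replicate 3, labelled CW_01_08, was the highest library of its group for Saa3 (24626 CPM, next 1770), Hp (422 CPM, next 34.1), Marco (1088 CPM, next 36.03) and Lcn2 (1.47 CPM, next 0.278). For Lcn2 the value rests on 8 counts. The values of Saa3, Hp and Marco without this library stand beside those with it in the account above. Its total count, 5610956, lay within the range of the other IkbkbCA libraries, and the share of its reads outside genes was 12.96%, against 12.4% to 13.99% in them.

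IkbkbWT replicate 5 was the highest of its group for Lcn2, at 4.02 CPM from 35 counts, with the next library at 0.383 CPM. Its summed neutrophil markers were 26.3 CPM, within the 24.2 to 42.3 CPM of the group. PS19 replicate 1 was the lowest of its group for Hp, at 1.64 CPM, with the next library at 9.22 CPM, and its neutrophil markers were the lowest of the group as well. In vehicle, replicate 2 was the only library with a read of Hp, 1 count or 0.201 CPM.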

How the results depend on the processing

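The alternatives were DESeq2, limma-voom, RLE in place of TMM, scaling by total counts, no filter, one fit of the 34 libraries, leaving out each library, age as a covariate in PS19 vs NTG and, chosen after the data were seen, Ddx3y as a covariate in both Ikbkb comparisons. No paired analysis was possible because the replicate numbers are in accession order. With tau fibrils the log2 fold changes of Saa3, Marco and Lcn2 ranged over 5.00 to 5.31, 6.19 to 6.56 and 1.87 to 2.31 in the 14 alternatives, with nothing read from their tests. In IkbkbCA vs IkbkbWT the fold changes of Saa3, Hp and Marco ranged, with DESeq2 left aside, over 4.77 to 7.29, 5.49 to 10.7 and 3.67 to 7.33. The number of the 5 genes called there was 0 with DESeq2, which gave no adjusted p, and 1 with limma-voom. In one fit of the 34 libraries it was 4, and nothing is read from these calls. In Ikbkb-/- vs Ikbkb+/+ it was 1 without the filter, as Lcn2 was lower (log2 fold change −2.09, edgeR FDR 0.022). In PS19 vs NTG it was 0 under all 15 alternatives.

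PS19 vs NTG gave 8 DEGs, 98 with DESeq2, 4 with limma-voom, 166 without the filter, 371 in one fit of the 34 libraries, 0 with age as a covariate (edgeR, with 553 genes at an unadjusted p under 0.05) and 4 to 54 when 1 library was left out, the 54 without PS19 replicate 2. Of its pathway genes 3, 6 and 4 were called with DESeq2, without the filter and in one fit, and 0 to 2 when 1 library was left out. In Ikbkb-/- vs Ikbkb+/+ the 1641 DEGs became 515 in one fit and 287 with Ddx3y as a covariate, and the 23 pathway DEGs 11 and 9.

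The direction turned for Lcn2 in PS19 vs NTG (log2 fold change −0.30 with limma-voom, −0.26 with age, −0.33 to 0.30 without 1 library, below 0 without PS19 replicate 2 or 3 or NTG replicate 1 or 2) and for Saa3 in Ikbkb-/- vs Ikbkb+/+ (−0.50 with Ddx3y, −0.068 to 0.40 without 1 library, below 0 without Ikbkb-/- replicate 1). It also turned for Socs3 with tau fibrils (−0.13 with total-count scaling, −0.20 to 0.21 without 1 library) and, in PS19 vs NTG, for Il6st (0.0016 without the filter, −0.16 to 0.11 without 1 library), Stat3 (−0.013 to 0.28 without 1 library), Socs3 (−0.20 with age), Slc22a17 (−0.042 with age), Cd163 (0.49 with age, −0.34 to 0.20 without 1 library) and Msr1 (−0.12 to 0.83 without 1 library). In IkbkbCA vs IkbkbWT it turned for Cebpd (−0.18 without CW_01_08, up to 0.21 without another library) and Slc22a17 (0.0031 with RLE, 0.0062 with DESeq2, 0.16 with limma-voom, 0.0061 without the filter, 0.041 with Ddx3y, 0.0041 in one fit, −0.21 to 0.33 without 1 library). With Ddx3y it turned in Ikbkb-/- vs Ikbkb+/+ for Lyz2 (0.056), Il1b (−1.38), Slc22a17 (−0.081) and Msr1 (0.66, and −0.19 to 0.0038 without 1 library). The causes were not tested. Too few counts for a test were found for Hp and Slpi with tau fibrils, Lcn2 and Slpi in IkbkbCA vs IkbkbWT, Marco in PS19 vs NTG, and all but Saa3 in Ikbkb-/- vs Ikbkb+/+.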
